A study of Homo sapiens with 6 samples.

Results

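Inflammatory signalling genes were followed after knockdown of METTL3 in A549, a long-established cell line from a human lung adenocarcinoma. The set held 49 genes chosen by symbol for their role: chemokines, cytokines and their receptors, the NF-kB subunits, and genes that restrain or carry the NF-kB response. All 49 symbols were present among the 57781 rows of the count table, where IL8 is listed as CXCL8. RNA was sequenced from 3 libraries of cells with an empty vector, whose genotype the submitters gave as WT, and from 3 libraries of cells labelled shMETTL3, in which a short hairpin RNA lowers METTL3. METTL3 is the enzyme of the writer complex that places N6-methyladenosine (m6A) on mRNA. No stimulus was named for any library, and all cells were grown in DMEM with fetal bovine serum. The count columns number the knockdown libraries sh1 to sh3, and no source used here says whether these were separate hairpins, clones or cultures, so that the p-values measure only the spread between these libraries.

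As background, NF-kB transcription factors are dimers of RELA, RELB, REL and the processed products of NFKB1 and NFKB2. Inhibitors of the IkB family hold them in the cytoplasm until signals from interleukin 1, tumour necrosis factor or microbial products release them. They then drive chemokines such as IL8, adhesion molecules, and the genes for their own inhibitors, which close the response. In airway epithelium this pathway is known for recruiting neutrophils and monocytes.

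Totals ran from 14931426 to 19108928 counts per library. Counts were scaled to CPM, counts relative to the scaled library total, by edgeR's TMM method, and each fold change below compares shMETTL3 with vector, tested by edgeR's quasi-likelihood method with a Benjamini-Hochberg adjusted p under 0.05 over all 15125 genes that passed a filter on low counts. METTL3 itself had 887, 846 and 808 counts with the vector and 364, 399 and 307 counts with shMETTL3, which is 38.8% of its scaled level in vector cells. All 5 epithelial markers examined were detected, and their summed level was 8981 to 9591 CPM in vector and 3927 to 4323 CPM in shMETTL3 libraries. EPCAM, CDH1, KRT8, KRT18 and KRT19 were each lower. Of the markers of other cell types, the leukocyte genes PTPRC and CD3E had at most 1 count in any library, and the endothelial gene VWF had none, although CD14, ITGAX and CDH5 rose. The 5 leukocyte markers summed to 1.06 to 1.62 CPM in vector and 9.28 to 10.4 CPM in shMETTL3 libraries. The 4 endothelial markers in the table summed to at most 0.184 CPM and to 1.45 to 2.02 CPM, and the 5 fibroblast markers to 6.41 to 9.56 CPM and 13.8 to 14.4 CPM, with COL1A1 higher and COL1A2 at 0 in 5 of the 6 libraries. The part of these marker differences in the results below was not tested. In such bulk samples, fewer cells of a kind and less RNA per cell cannot be told apart.

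Of the 49 genes, 30 were higher and 5 lower with shMETTL3, 5 were tested without passing the threshold, and 9 did not pass the filter. Among all tested genes, 66.6% were called in either direction, 33.7% as higher and 32.9% as lower. That split depends on the scaling: with library size alone, 44.6% of all tested genes were called higher and 23.2% lower, and 33 members were higher and 5 lower. In CPM, 35 of the tested members had no overlap between the groups, as did 69.4% of all tested genes. A change of at least 1 on the log2 scale was seen in 20 of the 40 tested members, with 18 (45%) higher and 2 (5%) lower. Among all tested genes, 10.2% were higher and 7.42% lower by that much. The median log2 fold change was 0.84 over the 40 tested members and 0.0022 over all tested genes. CCL5, CCL26, CCL28, IL1B, IL6 and ICAM1 reached the filter's level in the libraries of a single group only and so had to differ. The other 34 tested members included 25 higher and 4 lower genes, of which 13 and 1 changed by at least 1 on the log2 scale, and their median was 0.80.

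**Figure D1:**
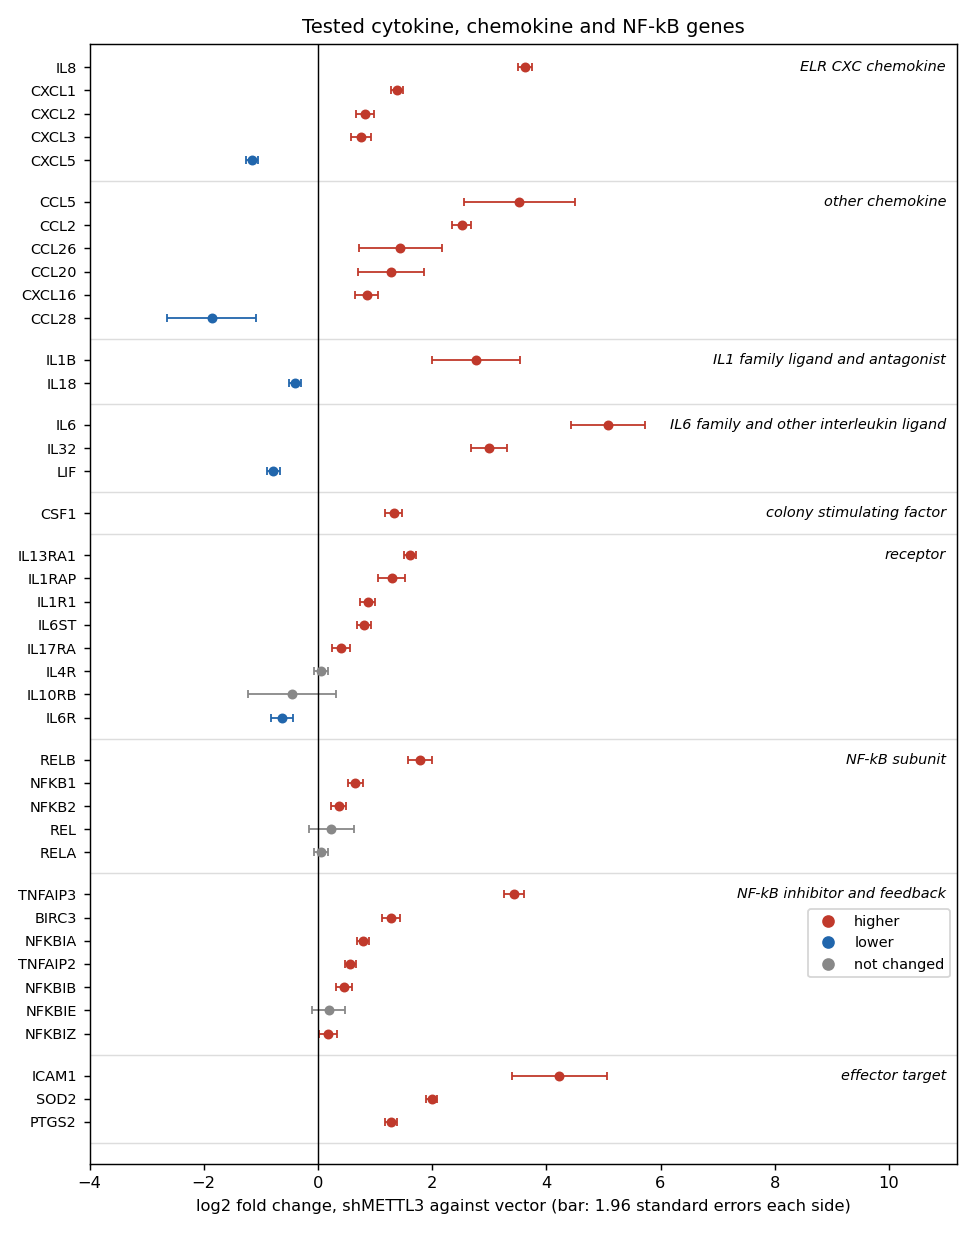
Log2 fold change of shMETTL3 against vector (horizontal axis) for the 40 tested genes, grouped by role; each point is the edgeR estimate and each bar is its 95% interval. Rises prevail among ligands, feedback genes and targets, with CXCL5, CCL28, IL18, LIF and IL6R to the left of 0.

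The ELR CXC chemokines, which attract neutrophils through the receptors CXCR1 and CXCR2, are encoded side by side on chromosome 4. From IL8, which starts at 74606236 in GRCh37, to CXCL2, which ends at 74964913, the stretch also holds CXCL6, CXCL1, CXCL5 and CXCL3. To show how alike their control regions are, each promoter (RefSeq, from 250 bases before to 50 after the transcript start) was searched on both strands for GGANNTTCC, a form of the NF-kB binding motif, and the match was placed on GRCh37. All 6 promoters carried the same 9 letters at a similar distance from the start. The capitals below mark them, read 5′ to 3′ along the gene's strand.
IL8: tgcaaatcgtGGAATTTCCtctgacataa
CXCL1: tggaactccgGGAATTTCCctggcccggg
CXCL2: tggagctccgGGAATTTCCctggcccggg
CXCL3: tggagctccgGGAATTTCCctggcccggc
CXCL5: atgagttcagGGAATTTCCccagcatccc
CXCL6: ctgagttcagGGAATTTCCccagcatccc

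These stretches lie at chr4:74606185-74606213 and chr4:74735022-74735050 on the plus strand for IL8 and CXCL1, and at chr4:74702296-74702324 on the plus strand for CXCL6. On the minus strand they lie at chr4:74964971-74964999 for CXCL2, chr4:74904466-74904494 for CXCL3 and chr4:74864466-74864494 for CXCL5. The motif began 91 bases before the start of IL8, 78 before CXCL1 and CXCL3, 77 before CXCL2, 90 before CXCL5 and 89 before CXCL6. GGAATTTCC was present in 0.461% of the 35116 promoters in the table. A match is a run of letters and does not show that a factor was bound.

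The levels of these genes moved in different directions. IL8 (CXCL8 in the count table) had 287, 254 and 231 counts with the vector and 3641, 3824 and 2879 counts with shMETTL3. Every knockdown library lay far above every vector library, and the mean rose from 15.1 ± 0.918 to 187 ± 4.92 CPM (SD, n = 3), with a log2 fold change of 3.63 (standard error 0.064, adjusted p = 1.36e-25 from edgeR). CXCL1 had 862, 886 and 794 counts against 2508, 2607 and 2086 and rose from 49.9 ± 2.72 to 130 ± 0.829 CPM (SD, n = 3), a log2 fold change of 1.39. CXCL2 and CXCL3 rose less, by 0.83 and 0.76 on the log2 scale. CXCL5 moved the other way. It had 31793, 31965 and 26791 counts with the vector and 15254, 15926 and 12747 with shMETTL3, and fell by 1.16 on the log2 scale (standard error 0.054, adjusted p = 1.3e-16 from edgeR), to 44.8% of the vector level. CXCL6 had 0 counts in all 6 libraries, which allows at most 0.189 CPM in the shallowest.

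Per kilobase of exon, CXCL5 remained the most abundant of the 6 in both groups, at 729 ± 55.7 CPM per kb in vector and 327 ± 2.69 CPM per kb in shMETTL3 libraries (SD, n = 3). In vector cells CXCL1 followed at 36.6 ± 2.0, then CXCL2 at 10.9 ± 0.141, and CXCL3 and IL8 at 6.40 ± 0.714 and 5.84 ± 0.355 CPM per kb, which did not differ beyond their spread. In knockdown cells IL8, at 72.2 ± 1.90 CPM per kb, stood above CXCL2 at 19.4 ± 1.24 and CXCL3 at 10.8 ± 0.717, and below CXCL1 at 95.8 ± 0.609 CPM per kb. The exon length covers every annotated exon of a gene, over all its transcripts, and this order depends on it. In CPM, IL8 lay above CXCL1 in knockdown cells, at 187 against 130. CXCL2, CXCL3 and IL8 lay at 15.2, 14.2 and 15.1 CPM in vector cells. CXCL1, CXCL2 and CXCL3 are close copies. Of the 50-base stretches in their canonical transcripts, 5.3%, 10.1% and 5.3% also occur in another gene's transcript, and reads from these stretches may be lost or misplaced. None of the stretches of IL8 does so.

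**Figure D2:**
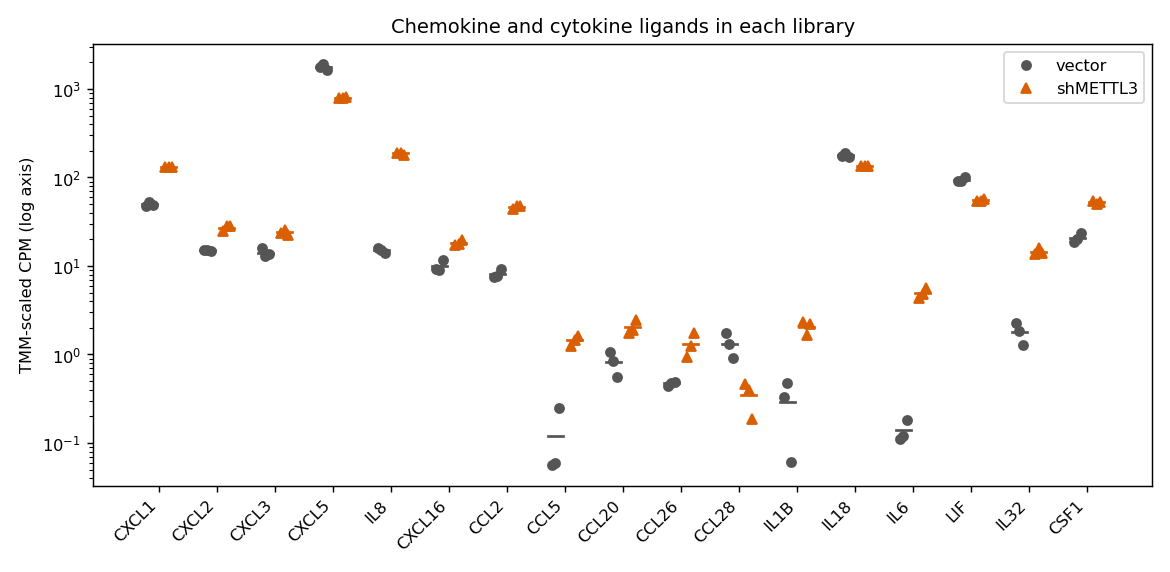
TMM-scaled CPM (log axis) of the 17 tested chemokine and cytokine ligands in each library, with circles for vector, triangles for shMETTL3 and a short line at each mean. CXCL5, CCL28, IL18 and LIF lie lower with shMETTL3 and the other 13 higher, and the groups are apart for each gene, as for 69.4% of all tested genes; CCL5, CCL26, CCL28, IL1B and IL6 had to be apart by the filter.

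Of the other 9 chemokines, 5 rose and 1 fell, beside 66.6% called among all tested genes. CCL5, CCL26 and CCL28 are among the genes that had to differ, so that CXCL16, CCL2 and CCL20 are the called genes free of that limit. CCL2, the main attractant of monocytes, had 134, 129 and 150 counts with the vector and 858, 945 and 762 counts with shMETTL3, a 5.73-fold rise (log2 fold change 2.52, standard error 0.085, adjusted p = 1.17e-19 from edgeR). CXCL16, a membrane-bound chemokine, rose by 0.85 on the log2 scale. Further chemokines were scarce in both groups. CCL5, which attracts T cells, had 1, 1 and 4 counts against 24, 29 and 26. CCL20, the ligand of CCR6, had 19, 14 and 9 counts against 34, 38 and 39, a log2 fold change of 1.29. CCL26, an eosinophil attractant, had 8 counts in each vector library and 18, 25 and 28 with shMETTL3. At these counts the estimates are broad, with a standard error of 0.496 for the log2 fold change of CCL5. Of the 50-base stretches of CCL5, 12.4% also occur in the pseudogene HNRNPA1P40, so its count is uncertain. CCL28, a mucosal chemokine, fell by 1.86 on the log2 scale, from 31, 22 and 15 counts to 9, 8 and 3. The interferon-induced chemokines CXCL10 and CXCL11 were next to absent, with a single count of CXCL10 in all 6 libraries, and CX3CL1 had 2 to 10 counts per library with overlapping groups.

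In the interleukin 1 family, the ligands moved in both directions and both receptor genes of the set rose. IL1B, a pro-inflammatory ligand, had 6, 8 and 1 counts with the vector and 45, 33 and 35 with shMETTL3, a ratio of summed scaled counts of 6.95 (95% exact interval 4.04 to 12.8). IL1A, its sister ligand, did not pass the filter and had 1, 0 and 0 counts against 16, 7 and 9. IL33, an alarmin, also failed the filter, with 1, 2 and 1 counts against 18, 10 and 6. For these low counts the ratio of summed counts, scaled by library size, was 29.5 for IL1A (95% exact interval 4.93 to 1202) and 7.84 for IL33 (2.80 to 30.4), intervals that cover counting error only. IL18, which signals through a related receptor, was the abundant member of the family and fell from 178 ± 10.4 to 135 ± 1.61 CPM (SD, n = 3), by 0.40 on the log2 scale. The antagonist IL1RN had 0 counts in every library. The receptor IL1R1 rose by 0.87 and its partner IL1RAP, with 100, 103 and 82 counts against 284, 257 and 214, by 1.29 on the log2 scale. Neither overlapped between groups, as for 69.4% of all tested genes.

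The interleukin 6 family was split as well. IL6, a broad inflammatory cytokine, had 2, 2 and 3 counts with the vector and 83, 96 and 90 with shMETTL3. The ratio of summed counts was 35.5 (95% exact interval 16.98 to 89.0), which overlaps that of ICAM1, given below. LIF, a related cytokine that uses the same signalling chain, had 1641, 1543 and 1633 counts against 1054, 1089 and 897, and fell by 0.78 on the log2 scale. IL6ST, that shared chain (gp130), rose from 58.6 ± 4.22 to 103 ± 3.89 CPM (SD, n = 3), while IL6R, the subunit that binds IL6, fell from 16.3 ± 1.49 to 10.5 ± 0.415 CPM. Both receptor genes separated the groups completely, as did 69.4% of all tested genes. IL32, an intracellular cytokine, had 41, 31 and 21 counts against 263, 324 and 221, a 7.98-fold rise.

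CSF1, the growth factor of macrophages, rose 2.51-fold, from 338, 336 and 387 counts to 1048, 1001 and 844. CSF2, which acts on granulocytes and macrophages, was at 0 in the vector libraries and had 8, 10 and 3 counts with shMETTL3. Against a floor of 3 counts per library this is at least 2.08-fold higher. CSF3, the granulocyte factor, had 1 count in each vector library and 13, 4 and 8 in the others, a ratio of 7.69 (95% exact interval 2.35 to 39.8). CSF2 and CSF3 did not pass the filter. An edgeR fit without that filter gave an adjusted p of 0.000137 for CSF2, whose vector libraries were all at 0, 0.00274 for CSF3, 9.52e-06 for IL1A and 0.000289 for IL33. In the same fit CX3CL1 (0.515) and CXCL10 (0.524) did not pass. Adjusted p-values of that fit are not on the scale of the main fit. For CXCL1, for example, edgeR gave 2.57e-114 without the filter and 4.59e-18 with it, at nearly the same fold change.

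Among the remaining receptors, IL13RA1, a shared chain for interleukins 4 and 13, had 847, 742 and 762 counts with the vector and 2734, 2766 and 2247 with shMETTL3, a log2 fold change of 1.61 (standard error 0.054, adjusted p = 1.13e-19 from edgeR). It is the only member on chromosome X, where the median log2 fold change of 446 tested genes was 0.74, against -0.0036 for 13213 genes on the numbered chromosomes. The part of that shift in the change of IL13RA1 was not tested. IL17RA, the common interleukin 17 receptor chain, rose by 0.40. IL4R stood at 45.7 ± 2.71 and 47.7 ± 1.44 CPM (SD, n = 3), with a log2 difference between -0.06 and 0.18 (95% interval). IL10RB did not pass either, at 7 to 23 counts per library, and 65.9% of its 50-base stretches also occur in the read-through transcript IFNAR2-IL10RB. Whether the authors' annotation held that transcript is not given in the sources used here, so its count is uncertain.

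Of the 5 NF-kB subunits, 3 rose and 2 did not pass the threshold, a share of calls no higher than the 66.6% among all tested genes. RELB, the subunit of the non-canonical arm, had 90, 87 and 88 counts with the vector and 340, 383 and 274 with shMETTL3, a 3.46-fold rise (log2 fold change 1.79, standard error 0.108, adjusted p = 3.47e-14 from edgeR). NFKB1, the precursor of p50, had 519, 492 and 487 counts against 896, 966 and 703, a log2 fold change of 0.66. NFKB2, the precursor of p52, had 663, 640 and 652 counts against 982, 948 and 791, a log2 fold change of 0.36. These 3 of the 5 subunits (60%) separated the groups, against 69.4% of all tested genes. RELA, the main activating subunit, had 1446, 1335 and 1562 counts against 1677, 1783 and 1421, and its groups overlapped at 85.4 ± 8.96 and 88.4 ± 1.40 CPM (SD, n = 3), with a log2 difference between -0.07 and 0.17. REL, with 49, 54 and 74 counts against 57, 93 and 76, also overlapped, with an interval from -0.16 to 0.63, and 7.2% of its 50-base stretches occur in another gene. Per kilobase of exon, RELA was the most abundant subunit in both groups, at 15.7 ± 1.64 and 16.2 ± 0.256 CPM per kb, and RELB went from 1.74 ± 0.063 to 6.002 ± 0.327 CPM per kb. NFKB1 stood at 1.88 ± 0.030 CPM per kb in vector cells, near RELB, and at 2.95 ± 0.125 CPM per kb in knockdown cells, below RELB. That order depends on the exon length, which covers all annotated exons, 15.679 kb for NFKB1 and 2.997 kb for RELB. In CPM, NFKB1 lay above RELB in both groups, at 29.4 against 5.21 with the vector and 46.3 against 18.0 with shMETTL3.

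Of the 7 inhibitors and feedback genes, 6 were called higher and NFKBIE was not, beside 33.7% called higher among all tested genes, or 44.6% with library size alone. TNFAIP3 encodes A20, a ubiquitin-editing enzyme that shuts off signalling to NF-kB. It had 82, 86 and 77 counts with the vector and 1008, 1062 and 812 with shMETTL3, a 10.8-fold rise (log2 fold change 3.44, standard error 0.087, adjusted p = 1.82e-22 from edgeR). BIRC3, an inhibitor of apoptosis that acts in the same receptor complexes, had 293, 235 and 212 counts against 692, 694 and 564, a 2.44-fold rise. NFKBIA, the IkB alpha gene, had 1184, 1091 and 1154 counts against 2158, 2337 and 1919, a 1.73-fold rise. TNFAIP2, a cytokine-induced gene, had 7140, 6486 and 6863 counts against 11089, 12064 and 9748 and rose 1.48-fold. NFKBIB, with 492, 463 and 499 counts against 715, 767 and 667, rose 1.37-fold. NFKBIZ, an atypical nuclear IkB, had 357, 320 and 311 counts against 433, 432 and 344. Its change of 0.18 on the log2 scale passed narrowly (edgeR adjusted p = 0.0458) and was lost in each of the 6 fits that left out a library, with adjusted p from 0.0583 to 0.1303. NFKBIE had 91, 98 and 66 counts against 112, 116 and 87, with overlapping groups and a log2 difference between -0.10 and 0.48.

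**Figure D3:**
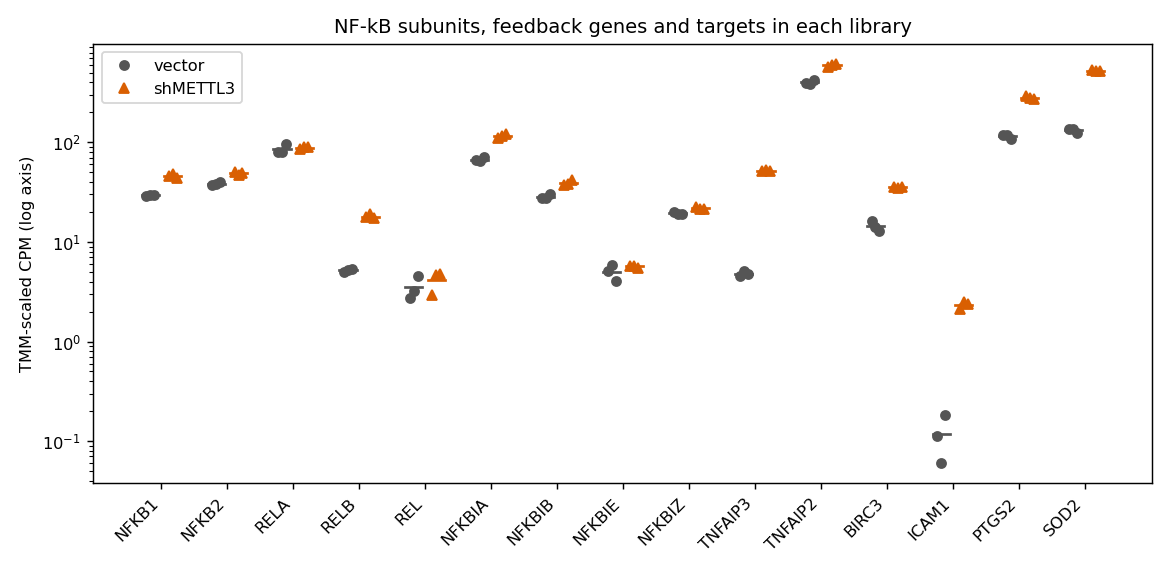
TMM-scaled CPM (log axis) of the NF-kB subunits, feedback genes and effector targets in each library, with circles for vector, triangles for shMETTL3 and a short line at each mean. The groups are wide apart for TNFAIP3, ICAM1, SOD2 and RELB, and overlap for RELA, REL and NFKBIE.

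The 3 effector genes all rose, beside 33.7% called higher among all tested genes, and ICAM1 had to differ by the filter. ICAM1, the adhesion molecule that binds leukocyte integrins, had 2, 1 and 3 counts with the vector and 41, 50 and 38 with shMETTL3, a ratio of 19.8 (95% exact interval 8.87 to 55.1). SOD2, the mitochondrial superoxide dismutase, had 2421, 2301 and 2031 counts against 10226, 10561 and 8294, a 3.97-fold rise. PTGS2, the inducible cyclooxygenase COX-2, had 2115, 1999 and 1758 counts against 5664, 5538 and 4310, a 2.44-fold rise. For SOD2 and PTGS2 the groups did not overlap, as for 69.4% of all tested genes.

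Promoters were then compared over the whole set, since many members are known NF-kB targets. The RefSeq table held promoters for 38 of the 49 genes, 56 promoters in all, each with a single match in GRCh37. GGANNTTCC was found in 19 of these 56 promoters (33.9%), against 4.56% of all promoters in the table. Counted by gene, with any promoter sufficing, it was found for 19 of the 38 genes, against 5.57% of all genes in the table. It was present for 13 of the 24 higher genes with a promoter, for CXCL5 among the 3 lower genes, for REL among the 4 genes that did not pass, and for 4 of the 7 untested genes (CXCL6, CXCL10, CXCL11 and CSF2). TGANTCA, the AP-1 motif, was found in 7 of the 56 promoters, against 7.71% of all promoters, and for 6 of the 38 genes, against 9.37% of all genes, and did not overlap the first motif in any of them. Matches are shown for IL6, TNFAIP3, ICAM1 and IL32, which rose by more than 2 on the log2 scale, and for the inhibitor NFKBIA and the subunit NFKB1, which rose less, with capitals again marking the match.
IL6: atcaaatgtgGGATTTTCCcatgagtctc
TNFAIP3: acgtgactttGGAAAGTCCcgtggaaatc
ICAM1: gctttagcttGGAAATTCCggagctgaag
IL32: tcccgagtctGGACTTTCCctctgcccct
NFKBIA: tgactggcttGGAAATTCCccgagcctga
NFKB1: gacgtcagtgGGAATTTCCagccaggaag

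In GRCh37 these lie at chr7:22766737-22766765 for IL6, chr6:138188319-138188347 for TNFAIP3, chr19:10381600-10381628 for ICAM1, chr16:3115326-3115354 for IL32 and chr4:103422458-103422486 for NFKB1, all on the plus strand, and at chr14:35874018-35874046 on the minus strand for NFKBIA. The match for TNFAIP3 reads GGANNTTCC on the opposite strand. CXCL5 and REL carried the letters without a rise, and SOD2, PTGS2 and BIRC3 rose although their promoters in the table held no match. No match was listed for CCL2, CCL5 and IL1B, which also rose by more than 2 on the log2 scale. For 11 members there was no promoter to search.

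The machinery around these genes was examined in a list of 105 other genes of the same pathways, of which 79 were tested, 42 were higher and 22 lower, beside 33.7% higher and 32.9% lower among all tested genes. The counts by role below stand beside those same shares. Their median log2 fold change was 0.28, and 16 rose and 3 fell by at least 1 on the log2 scale. Without 5 genes that reached the filter's level in a single group, 37 of 74 were higher and 22 lower, 11 and 3 of them by at least 1, and the median was 0.25. Among the adaptors and kinases between receptor and NF-kB, 14 of 25 tested genes were higher and 6 lower. IRAK2, a kinase of the interleukin 1 receptor complex, had 97, 97 and 99 counts against 852, 920 and 723, a 7.85-fold rise, and TRAF1, an adaptor that is itself an NF-kB target, had 32, 36 and 41 counts against 257, 260 and 208, a 6.12-fold rise. IRAK2, TRAF1, TNC, LCN2, ZFP36 and IL1R2 are named as the 3 largest rises and the 3 largest falls of the list among genes whose average log2 CPM reached 1. Its other genes below were picked after their values were seen. The kinases CHUK and IKBKB, both catalytic subunits of the IkB kinase, changed in opposite directions, by 0.42 and -0.45 on the log2 scale. IRAK1, TAB3 and IKBKG, which rose by 1.18, 1.37 and 0.70, lie on chromosome X, whose median is given above.

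Of the 15 tested NF-kB regulators and mRNA decay factors, 7 were higher and 6 lower. ZFP36 (tristetraprolin), which binds AU-rich elements, had 816, 867 and 877 counts with the vector and 314, 383 and 281 with shMETTL3, and fell by 1.51 on the log2 scale (adjusted p = 1.47e-15 from edgeR). ZFP36L2 fell by 0.74, the RNase ZC3H12A (regnase-1) by 0.67, HNRNPD (AUF1) by 0.65 and KHSRP by 0.25. ZFP36L1, the third member of the ZFP36 family, rose by 1.59, from 55.1 ± 0.295 to 165 ± 7.43 CPM (SD, n = 3). Decay of the cytokine mRNAs was not measured. ELAVL1, which stabilises such mRNAs, had a log2 difference of -0.12 and did not pass. In the same list group, the NF-kB regulators CYLD and NKRF rose by 0.95 and 0.85, and NKRF too lies on chromosome X.

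Other cytokines and receptors extended the families described above. IL11, a further ligand of the gp130 chain, had 636, 641 and 628 counts against 4189, 4392 and 3563, a 5.88-fold rise, and CLCF1, of the same family, rose 1.99-fold. Of the 8 tested genes that carry the signal of this family, 4 were higher and 3 lower. The receptors LIFR and OSMR, which pair with gp130, and the kinases JAK2 and JAK1 rose by 0.67, 0.55, 0.60 and 0.27 on the log2 scale, and the kinase TYK2 and the transcription factors CEBPB and CEBPD fell by 0.40, 0.54 and 0.64. STAT3, the main transcription factor below these receptors, was at a log2 difference of 0.03 and did not pass. IL1R2, a decoy receptor that captures interleukin 1, had 215, 194 and 216 counts against 126, 99 and 104 and fell by 1.04, while IL18R1 rose by 1.28. Among further NF-kB targets, 7 of 12 tested genes were higher and 4 lower. VCAM1, PTX3, SAA1 and BCL2A1 reached the filter's level with shMETTL3 only and so had to be higher, and the other 8 were split into 3 higher and 4 lower genes. TNC, an extracellular matrix protein, rose 10.6-fold, from 24, 30 and 25 counts to 330, 307 and 273. VCAM1 and PTX3 were at 0 in the vector libraries and at least 8.38-fold and 6.18-fold higher. LCN2 (lipocalin 2), an abundant target at 336 ± 22.1 CPM in vector cells, fell to 116 ± 3.03 CPM (SD, n = 3), a log2 fold change of -1.53. CFB and TAP1 are listed at 0 or 1 counts in all libraries, as is CXCL9, and no change can be read from them.

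**Figure D4:**
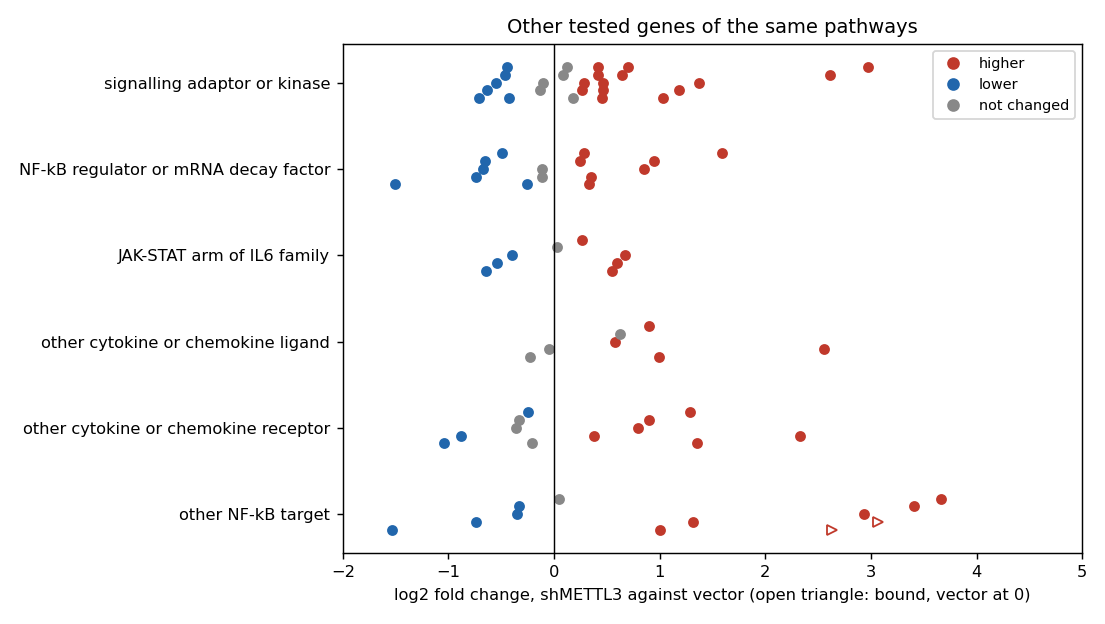
Log2 fold change of shMETTL3 against vector (horizontal axis) for the 79 tested genes of the additional list, by role (vertical axis); filled points are edgeR estimates and open triangles are lower bounds for VCAM1 and PTX3, which were at 0 in the vector libraries. Every group holds both higher and lower genes except the other ligands, where 4 were higher and none lower.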

How the data were processed

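The authors mapped reads to hg19 with HISAT2, counted them per gene with HTSeq and deposited raw counts, without normalization. The submitters' processing notes give HISAT2 2.2.1 and HTSeq 0.13.5, and the paper's methods name earlier versions. The annotation and strand setting are not given in the sources used here. Group and replicate number follow each sample's title.

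The counts were fitted with edgeR 4.0.16 (R 4.3.3), using glmQLFit and glmQLFTest after TMM scaling and filterByExpr, with group as the only term. Benjamini-Hochberg adjustment covered all 15125 tested genes, and a gene was called at an adjusted p under 0.05. DESeq2 1.42.0 was an alternative. A standard error is the unshrunk coefficient over the root of F. The floor was 3 counts per library, or 0.150 to 0.189 CPM. Intervals for ratios of low counts are exact binomial. The functions were tested on simulated counts.

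Exon lengths, positions and transcripts came from GENCODE on GRCh37. An exon length covers every annotated exon of a gene, over all its transcripts. Promoters came from a RefSeq table of GRCh38.p14 and were placed on GRCh37 by exact match. The members, lists and named genes were chosen with earlier results of these data known. Counts per library are given for members changed by at least 1 on the log2 scale and for the NF-kB genes. For the additional list, the 3 largest rises and falls at an average log2 CPM of at least 1 were named. A leukocyte marker of the original list is not reported here and was left out of the marker sums.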

Additional observations from a re-analysis of the deposited data

How the results depend on the processing

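The number of changed members stayed between 28 and 38 of 49 under RLE, upper-quartile and library-size scaling, no filter, DESeq2, a minimum of 10 counts per library, a block for the replicate number and an adjusted p under 0.01, and between 34 and 36 without each library in turn. The 28 came with the minimum of 10 counts per library, under which only 32 members were tested. A minimum log2 change of 1 left 20 members, 19 other pathway genes and 2668 genes in all, by its construction. Scaling by library size alone gave 6750 higher and 3509 lower genes in place of 5090 and 4977, shifted all genes by 0.17 and moved the members' median from 0.84 to 1.02, and no called member reversed direction. NFKBIZ lost its call under RLE scaling (adjusted p = 0.0502), no filter (0.138) and DESeq2 (0.121) besides the fits without a library. IL4R, RELA and NFKBIE were called higher with library-size scaling, RELA also without vector replicate 3 (log2 0.13), and IL10RB lower without shMETTL3 replicate 2 (log2 -1.13). Without a filter 33 members were higher, CSF2, CSF3, IL1A and IL33 among them. Same-numbered libraries did not deviate together (correlations 0.0694, -0.0237 and 0.039), and the replicate block gave 35 members, 64 other pathway genes and 10111 genes. The cause of these shifts was not tested. Members under about 10 counts per library are limited by depth.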
